A study of Mus musculus with 2 samples.

Results

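The Hox genes are the homeobox genes of the HoxA, HoxB, HoxC and HoxD clusters. They were chosen as the protein-coding genes of the GENCODE vM21 annotation whose symbol is Hoxa, Hoxb, Hoxc or Hoxd followed by a number, which gave 39 of 21938 protein-coding genes. The regions described are those with a summit inside a cluster, meaning between the first and the last base of its Hox gene bodies, or within 100 kb of its ends. There were 5 such regions of 16865 in the optimal list, which is the authors' thresholded list for both replicates together, and 249 of 300000 in their relaxed pooled list, which holds weak regions and background as well.

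Chromatin immunoprecipitation with sequencing (ChIP-seq) with an antibody against MAFK was done in ES-E14, a male embryonic stem cell line from mouse strain 129/Ola, with no treatment named in the labels. The labels give 2 biological replicates of 1 group and the same source of cells for both, so the spread between replicates can be partly technical. There was no second condition, and the control experiment was not analysed here. The files hold regions and not reads, so the read depth is unknown and no marker of stem cell identity could be checked.

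Hox genes encode transcription factors that set position along the body axis of the embryo. Neighbouring genes of a cluster are switched on in their order along the chromosome, from the paralogues with low numbers, which act near the head, to those with high numbers, which act near the tail. In embryonic stem cells the clusters are known as large domains of Polycomb-repressed chromatin with many CpG islands. MAFK is a small MAF factor with no activation domain of its own, which binds as a homodimer or beside a CNC factor such as NFE2, NRF2 or BACH1.

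The sequences around the 5 summits of the optimal list are printed first, because they are all the regions of the optimal list in these loci. Each runs from 50 bp before to 50 bp after the summit, on the plus strand of GRCm38, with MAF-type elements in capitals. The elements were the MAF core TGCTGA, the antioxidant response element core TGACNNNGC or TGAGNNNGC, the AP-1 element TGACTCA or TGAGTCA, the NFE2-type composite element, which is the AP-1 element followed by GCA, and the T-MARE palindrome of small MAF dimers with up to 2 mismatches. They were searched on both strands and overlap one another by construction. The windows lie at chr6:52078916-52079016, chr11:96260405-96260505, chr11:96387798-96387898, chr11:96413240-96413340 and chr15:103041779-103041879, in the order printed.
HoxA flank: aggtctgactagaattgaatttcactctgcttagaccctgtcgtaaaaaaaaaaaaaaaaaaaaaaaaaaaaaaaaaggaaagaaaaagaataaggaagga
HoxB cluster, upstream of Hoxb9: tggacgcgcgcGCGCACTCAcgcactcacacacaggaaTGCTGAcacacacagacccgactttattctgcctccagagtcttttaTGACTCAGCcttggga
HoxB flank, nearer Hoxb1: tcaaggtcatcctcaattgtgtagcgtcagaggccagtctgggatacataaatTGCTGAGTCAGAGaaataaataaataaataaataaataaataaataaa
HoxB flank, farther from Hoxb1: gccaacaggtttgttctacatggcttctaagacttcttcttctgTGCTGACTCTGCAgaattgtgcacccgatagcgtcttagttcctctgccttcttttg
HoxC flank, beyond Hoxc4: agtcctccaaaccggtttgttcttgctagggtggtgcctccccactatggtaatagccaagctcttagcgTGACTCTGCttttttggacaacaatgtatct

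MAFK binding that passed the authors' threshold was sparse in the Hox clusters, with 1 optimal summit inside them, in HoxB. The density of the assembled chromosomes would have given 3.13. HoxB alone had 5.75 per Mb, against 6.36 per Mb over the assembled chromosomes. Of the 39 Hox genes, 1 (2.56%) had an optimal summit no more than 10 kb from a transcription start site (TSS), against 26.9% of all protein-coding genes (5898 of 21938). That gene was Hoxc4, a paralogue expressed in the neck and thorax of the embryo, with its summit 7434 bp downstream of its nearest TSS. The next Hox genes outside the limit were Hoxb9 at 11002 bp and Hoxb8 at 21450 bp. No Hox gene had an optimal summit 1 kb or less from a TSS, against 8.66% of all genes, and within 2 kb none had, against 12.0%. Within 50 kb the count was 12 Hox genes (30.8%), 8 in HoxB and 4 in HoxC, against 59.3% of all genes. The 39 genes share 4 loci and often share a region, so they are not independent, and with 1 group these shares are a description with no test.

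The replicates taken alone gave the same gene. Hoxc4 was the 1 Hox gene with a summit within 10 kb in the thresholded list of replicate 1, against 13.7% of all genes, and again in that of replicate 2, against 17.4%. These lists come from the authors' second processing run, while the optimal list comes from the first. In the conservative list of the first run 2 Hox genes were called, Hoxc4 and Hoxb13, against 25.8% of all genes.

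The clusters differed in how far called binding lay from their genes. HoxD, at chr2:74668310-74765142, had no optimal summit inside or within 100 kb, and the distance from its 9 genes to the nearest one ran from 218101 bp for Hoxd13 to 312771 bp for Hoxd1. The span between the optimal summits on either side of HoxD was 669 kb, and 3.53% of the 16816 gaps between neighbouring optimal summits were as long, with a median gap of 69.7 kb. Such gaps together held 26.8% of the length between summits, so a span of this size was not rare by length.

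HoxA, at chr6:52155590-52260880, lay in a span of 337 kb without an optimal summit, with its genes a median of 129756 bp and up to 166829 bp (Hoxa11) from the nearest. HoxC, at chr15:102921103-103036852, lay in a span of 239 kb, with distances from 7434 bp at Hoxc4 to 118686 bp at Hoxc13. Gaps as long as that of HoxA held 50.5% of the length between summits, and gaps as long as that of HoxC 62.8%, so neither was rare by length. HoxB, at chr11:96194316-96368256, was the 1 cluster with a summit inside, and its genes were 11002 bp (Hoxb9) to 66139 bp (Hoxb13) away. Over all 39 genes the median distance was 104889 bp, against 33148 bp over protein-coding genes, and 76.9% of protein-coding genes lay as near as the Hox median or nearer.

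**Figure D1:**
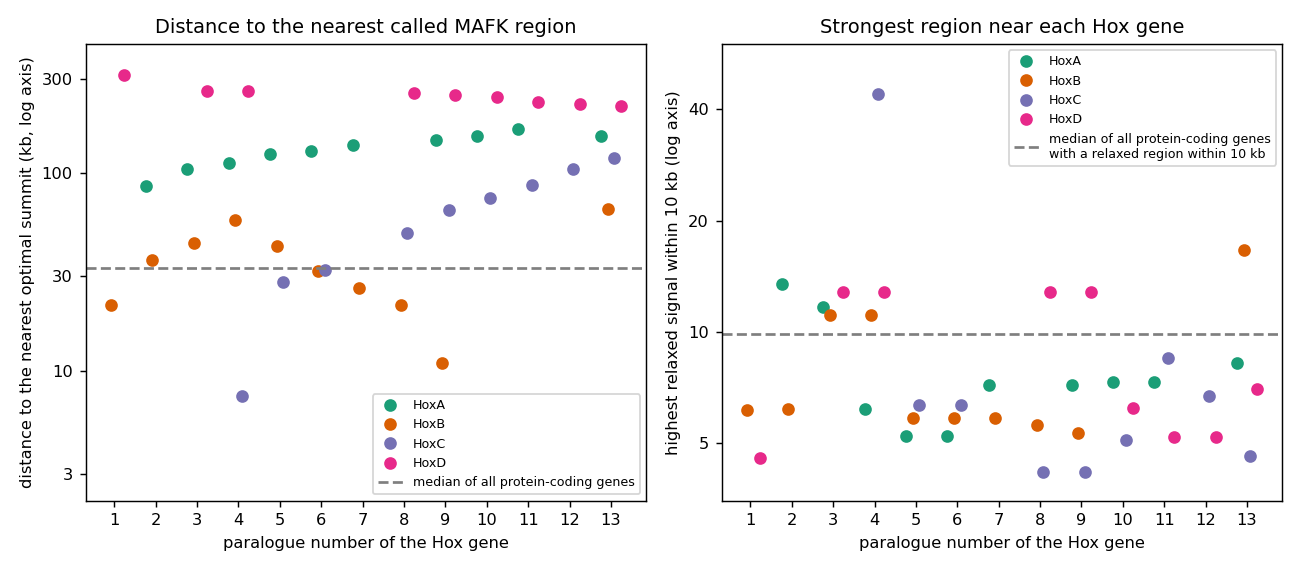
Distance in kb from Hox genes to the nearest optimal summit (left) and highest signal value of a relaxed region within 10 kb (right), on log axes, by paralogue number. Points are genes coloured by cluster, dashed lines the medians of protein-coding genes, 33148 bp on the left and 9.86 on the right. HoxD genes lie above all others on the left, and Hoxc4 stands apart at 44.0 on the right.

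The region inside HoxB lay at chr11:96260307-96260602, in an intron of the long intergenic noncoding RNA gene Gm53, 1155 bp from a TSS of Gm53 and 11002 bp upstream of Hoxb9, which acts in the thorax. Its signal value, a score of the authors without a stated scale, was 26.0 in the optimal list, at rank 9149 of 16865 and just under the list's median of 27.9. In the replicates' relaxed lists, which are compared by rank because they were processed separately, it had 8.36 at rank 15595 of 264306 in replicate 1 and 17.7 at rank 6731 of 300000 in replicate 2. It stood in all 4 thresholded lists made from both replicates and in neither replicate's own thresholded list. Its summit window held the MAF core, the antioxidant response element core and the AP-1 element, as printed above, in sequence with 55.4% GC and 7 CpG dinucleotides.

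The HoxC flank region, at chr15:103041681-103041976, lay 4977 bp beyond the cluster end and was the 1 region of the 5 in both replicates' thresholded lists, as were 35.4% of all optimal regions. Its signal was 44.0, at rank 4823, with 26.0 (rank 3845) in replicate 1 and 18.4 (rank 6405) in replicate 2. Among the elements searched it held the antioxidant response element core, 1 copy of which is in capitals above, and no AP-1 element, composite element or T-MARE palindrome.

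Beyond Hoxb1, the hindbrain paralogue at the end of HoxB, 2 optimal regions followed at 21590 and 47032 bp from its TSS. The farther one, at chr11:96413142-96413437, had the highest signal of the 5, 44.6 at rank 4732, with 21.3 (rank 4994) in replicate 1 and 24.1 (rank 4473) in replicate 2. A T-MARE palindrome with 1 mismatch was centred exactly on its summit, at 0 bp. The nearer one, at chr11:96387700-96387995, had 36.0 at rank 6223, with 26.5 (rank 3739) in replicate 1 and 8.24 (rank 18719) in replicate 2. Its summit lay in repeat-masked sequence, 7 bp from an NFE2-type composite element. The thresholded list of replicate 1 held the nearer one and not the farther one, and that of replicate 2 the farther one and not the nearer one.

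The HoxA flank region, at chr6:52078818-52079113, was the weakest of the 5, with 19.2 at rank 12525. It lay 66417 bp from the TSS of Skap2, an adaptor protein gene. Replicate 1 had 9.59 (rank 13028) and replicate 2 had 5.76 (rank 37624). Its summit lay in repeat-masked sequence, its window, which includes a run of adenines, held none of the MAF-type elements, and it was in neither replicate's thresholded list and not in the conservative list of the first run.

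The MAF-type elements of the 5 windows were counted beside those of all optimal regions. At least 1 stood in 4 of the 5, against 81.6% of all optimal regions. The MAF core was in 3, against 62.8%, the antioxidant response element core in 4, against 60.3%, and the AP-1 element in 2, against 37.8%. The composite element was in 1, against 28.2%, and the palindrome in 2, against 39.2%. The CTCF core CCCTC, searched as a control, was in none, against 21.0%. So short a sequence is no sign of CTCF binding by itself.

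Weak regions were not scarce in the same loci. The relaxed pooled list had 96 summits inside the clusters, 195 per Mb, against 113 per Mb over the assembled chromosomes, a density ratio of 1.72. In the replicates' own relaxed lists the ratio was 1.73 and 1.88, or 1.81 ± 0.108 (SD, n = 2). For relaxed regions with a deposited −log10 q of 1.3 or more, 10 of which were inside the clusters, the ratio was 1.15. Optimal summits ran the other way, with 1 inside the clusters, 2.03 per Mb, against 6.36 per Mb, where the density of the assembled chromosomes would have given 3.13. Stretches of 100 kb, about the length of HoxA, HoxC or HoxD, often held no optimal summit. Of 26220 such windows over the genome 60.7% held none, but they were not matched to the clusters for CpG content. The flanks were close to the clusters for relaxed regions, at 191 per Mb, and held 4 optimal summits, 5.0 per Mb.

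By cluster the pooled relaxed summits were 27 in HoxA, 35 in HoxB, 19 in HoxC and 15 in HoxD. Replicate 1 alone had 23, 26, 18 and 18 in the same order, and replicate 2 had 23, 46, 20 and 16. HoxB was the cluster where the replicates were farthest apart.

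**Figure D2:**
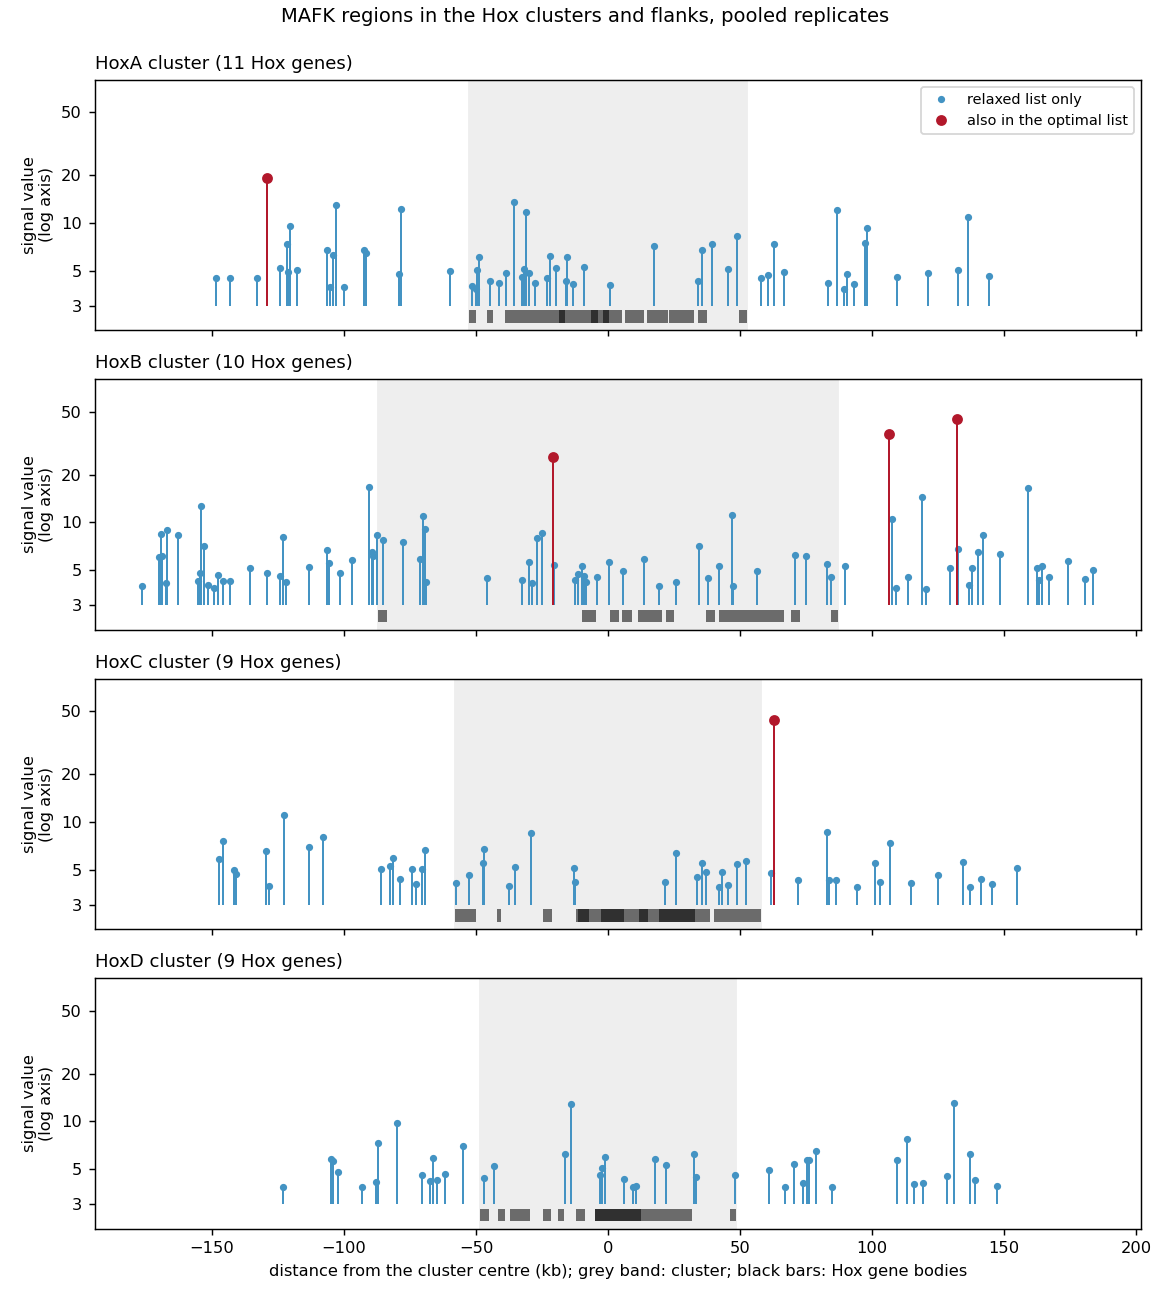
Signal value of each region of the relaxed pooled list (log axis) against the distance of its summit from the cluster centre in kb, for HoxA, HoxB, HoxC and HoxD. Grey bands are the clusters, black bars the Hox gene bodies, red points the 5 regions also in the optimal list and blue points the other relaxed regions. HoxB alone has a red point inside its band, and HoxD has none in view.

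The relaxed regions of the clusters held few strong ones. Their median signal was 5.10, against 5.0 over all relaxed regions, but their 90th percentile was 8.08 against 10.3. A signal of 10 or more was reached by 6 of the 96 (6.25%), against 10.5% of all, and 1 (1.04%) overlapped the optimal list, against 5.69%. Of the 96, 22 (22.9%) overlapped regions of both replicates' relaxed lists, against 21.4% of all. Another 22 overlapped a region of replicate 1 only, 33 of replicate 2 only and 19 of neither. Over all 299897 relaxed regions of the assembled chromosomes these counts were 70318, 109521 and 55865, which are similar shares.

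**Figure D3:**
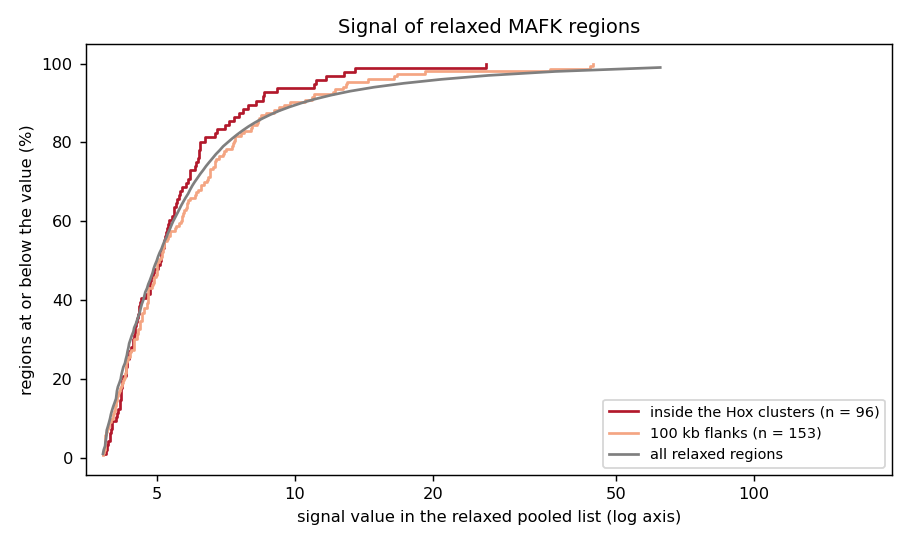
Share of regions (%) at or below each signal value (log axis) in the relaxed pooled list, for the 96 regions inside the Hox clusters, the 153 in the flanks and all relaxed regions. The curves run together near the medians of 5.10, 5.06 and 5.0, and the curve of the clusters ends at 26.0.

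The 4 strongest relaxed regions of each cluster made 16, and 8 of these had the summit within 1 kb of a TSS. The share was 45.8% for the 96 regions inside the clusters and 11.9% for all relaxed regions. That TSS was a Hox gene's for 1 of the 8. In HoxA the first had 13.5 (4.37 in replicate 1 and 6.58 in replicate 2) at 299 bp from a TSS of Gm15050 and 7751 bp upstream of Hoxa2, a hindbrain gene. The next had 11.7 (7.79 and 3.70) at 185 bp from the TSS of 5730596B20Rik and 6542 bp from Hoxa3. The others had 8.24 near Hoxa13 and 7.35 near Hoxa11, genes of the limb and posterior trunk. The region of 8.24 was at rank 15384 of 264306 in replicate 1 and rank 219545 of 300000 in replicate 2. That of 7.35 overlapped no region of replicate 2. In HoxD the first had 12.8 (9.95 and 5.06) at 2055 bp upstream of Hoxd8, and it was the strongest region within 10 kb of Hoxd3, Hoxd4, Hoxd8 and Hoxd9 alike. The other 3 of HoxD had 6.22, 6.21 and 5.92, and those of 6.22 and 6.21 overlapped no region of replicate 2.

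In HoxB, after the region upstream of Hoxb9, came 11.1 at 179 bp downstream of a TSS of Hoxb3 (5.13 in replicate 1 and 4.56 in replicate 2). It was the strongest relaxed region within 1 kb of any Hox TSS. The next had 11.0 and 9.12, both on the Hoxb13 side of the cluster. HoxC was weakest inside, with 8.52 at 4772 bp upstream of Hoxc11, then 6.71, 6.37 and 5.69. The region of 8.52 was at rank 230302 in replicate 1 and rank 148100 in replicate 2. That of 6.71 overlapped no region of replicate 2, and those of 6.37 and 5.69 none of replicate 1.

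The summit windows of the 3 leading regions outside HoxB that had a MAF core are printed for comparison with the called ones, again 50 bp to either side on the plus strand with MAF-type elements in capitals. They lie at chr6:52172532-52172632, chr6:52177263-52177363 and chr2:74702510-74702610. Each held the MAF core by this choice, the second also held the antioxidant response element core, and none held the AP-1 element. The composite element and the T-MARE palindrome were in no summit window of the 96 relaxed regions inside the clusters, so not in these either.
HoxA, upstream of Hoxa2: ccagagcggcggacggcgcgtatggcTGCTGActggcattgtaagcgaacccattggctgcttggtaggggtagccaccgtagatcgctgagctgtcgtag
HoxA, near Hoxa3: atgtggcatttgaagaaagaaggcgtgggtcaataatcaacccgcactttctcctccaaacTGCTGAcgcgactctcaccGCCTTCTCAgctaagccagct
HoxD, upstream of Hoxd8: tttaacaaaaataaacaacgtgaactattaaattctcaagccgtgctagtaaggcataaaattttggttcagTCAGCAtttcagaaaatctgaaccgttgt

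Each of the 39 Hox genes had a relaxed region within 10 kb, against 89.0% of all genes, but the highest signal there was low. Its median over the Hox genes was 6.37, against 9.86 over the 19520 protein-coding genes with such a region. It was 44.0 for Hoxc4, 16.7 for Hoxb13, a gene of the tail and prostate, and 4.18 for Hoxc9 and 4.19 for Hoxc8 at the low end. At the promoters themselves, 19 Hox genes (48.7%) had a relaxed region within 1 kb of a TSS, against 64.2% of all genes. The count was 13 in replicate 1, against 59.3% of all genes, and 20 in replicate 2, against 61.9%.

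Position along the clusters gave no steady order of signal. The anterior paralogues 1 to 3 had a median highest signal of 8.64 over 8 genes, the central paralogues 4 to 8 had 6.18 over 15, and the posterior paralogues 9 to 13 had 6.87 over 16. The ranges overlapped, from 4.57 to 13.5, from 4.19 to 44.0 and from 4.18 to 16.7. The region of 16.7 lay 3528 bp upstream of the TSS of Hoxb13, outside the cluster by the rule used, at chr11:96190640-96190935. It had 9.07 in replicate 1 and 9.12 in replicate 2, at close ranks of 14047 and 16026, and it is the region that added Hoxb13 in the conservative list.

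The clusters are CpG-rich, and over all bins the density of MAFK regions was higher in classes with more CpG. CpG dinucleotides numbered 24.4 per kb inside the clusters, against 8.3 per kb over the assembled chromosomes, and GC content was 49.3%, against 41.7%. Of the 1 kb bins inside the clusters 18.7% held 40 or more CpG dinucleotides, against 0.883% of all bins. In bins of that class the clusters had 286 relaxed summits per Mb, against 497 per Mb over all such bins, and 0 optimal summits in 91 bins, against 44.5 per Mb.

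In the CpG-poorest bins, with fewer than 10, the clusters had 126 relaxed summits per Mb, against 87.6 per Mb over all such bins. The classes between were closer, with 175 against 156 per Mb at 10 to 19 and 223 against 216 per Mb at 20 to 39. Bins matched for CpG class would have given 106 relaxed summits at the density of all bins, against 95 found in the 487 bins, and 8.02 optimal summits, against 1 found. For relaxed summits the deficit lay in the CpG-richest class, while the clusters were above all bins in the other 3 classes.

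**Figure D4:**
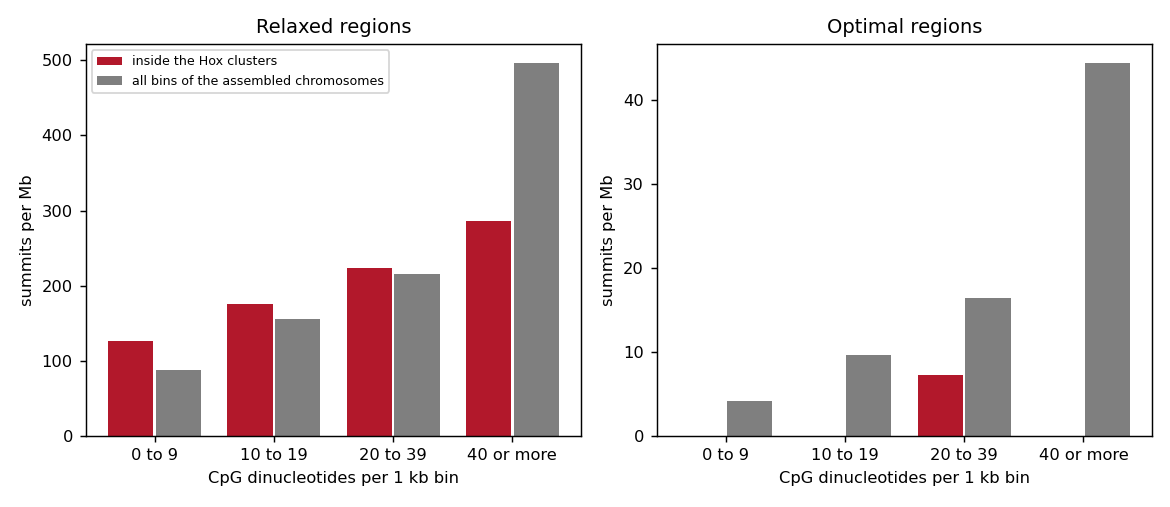
Summits per Mb in 1 kb bins, by the number of CpG dinucleotides in the bin, for relaxed (left) and optimal (right) regions. Red bars are bins inside the Hox clusters and grey bars all bins of the assembled chromosomes. In the richest class relaxed summits stood at 286 against 497 per Mb and optimal ones at 0 against 44.5 per Mb.

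Of the 96 relaxed regions inside the clusters 44 (45.8%) had the summit no more than 1 kb from the TSS of any gene, coding or not, against 11.9% of all relaxed regions. Another 24 were intronic, 19 intergenic, 6 in a UTR and 3 in another part of an exon. The clusters are dense in TSSs, including those of antisense and other noncoding transcripts, and how much of the share this density gives was not tested.

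MAF-type sequence elements at the relaxed summits of the clusters were near the background of weak regions. The MAF core was within 50 bp of 18 of 96 summits (18.8%), against 16.9% of all relaxed regions and 14.2% of those outside the optimal list. The antioxidant response element core was at 11 (11.5%), against 15.2% of all and 12.5% of those outside. The AP-1 element was at 2 (2.08%), against 6.40% of all and 4.53% of those outside. Neither the composite element nor the T-MARE palindrome was within 50 bp of any of the 96 summits. Over all relaxed regions the composite element was at 3.01% and the palindrome at 4.90%, and outside the optimal list at 1.51% and 2.86%. The CTCF core was at 28 (29.2%), against 20.6%, and how much of this share the GC content of the clusters gives was not tested.

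The composite element and the T-MARE palindrome were few in the cluster sequence, and none had a summit within 50 bp. The clusters held 2 composite elements in 491.8 kb, 4.07 per Mb, against 8.64 per Mb over the assembled chromosomes. Neither had an optimal or a relaxed summit within 50 bp, against 23.3% and 42.9% of the 22884 composite elements of the assembled chromosomes. For T-MARE palindromes with up to 2 mismatches the clusters held 14, or 28.5 per Mb, against 39.7 per Mb. All 14 had 2 mismatches and none had a summit of either list within 50 bp. Of palindromes with 2 mismatches over the assembled chromosomes, 4.48% had an optimal and 11.9% a relaxed summit. For palindromes with up to 2 mismatches these shares were 6.50% and 14.7%. Over the assembled chromosomes an optimal summit stood at 96.1% of the 383 palindromes with no mismatch, 31.3% of those with 1 mismatch and 4.48% of those with 2.

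The composite elements of the clusters are shown with 8 bp on either side, each on the strand that reads 5′ to 3′ through the element, which is the minus strand for the first 2. The first lies at chr6:52251507-52251532, 5709 bp from the TSS of Hoxa11, with its nearest relaxed summit 2247 bp away. The second lies at chr11:96211148-96211173 in repeat-masked sequence, 16844 bp from the TSS of Hoxb13, with a relaxed summit of signal 11.0 at 127 bp. This element, and a palindrome with 2 mismatches that overlaps it, lie inside the region of that summit, chr11:96211139-96211434. The third, for comparison, is in the HoxA flank at chr6:52294873-52294898 on the plus strand, 34005 bp from Hoxa13, with a relaxed summit of signal 12.1 at 9 bp. Capitals mark the element.
Composite element near Hoxa11: ttctctaaTGAGTCAGCAaccataaa
Composite element on the Hoxb13 side: ctgagagaTGACTCAGCAgttaagag
Composite element in the HoxA flank: aatcagccTGAGTCAGCAgaagccgg

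With the flanks included there were 11 composite elements, 1 with an optimal summit within 50 bp (9.09%) and 4 with a relaxed one (36.4%). Of 50 palindromes, 2 had an optimal summit (4.00%) and 6 a relaxed one (12.0%). The relaxed regions with a whole composite element or palindrome in the summit window numbered 6 of 249 (2.41%), all in the flanks. Their signals ran from 8.04 to 44.6, with a median of 12.6. The other 243 had a median of 5.02. Among them was a HoxA flank region of signal 5.01, whose composite element and palindrome, 47 and 48 bp from the summit, crossed the window's edge. The counts of sites above include both of these elements. Over all relaxed regions 5.81% had such an element, with a median of 13.8, against 4.93 without.

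Of those 6 regions 2 (33.3%), the optimal regions beyond Hoxb1, overlapped the optimal list, against 44.4% of all relaxed regions with such an element. A further 3 were in the thresholded list of the second run though not in the optimal list of the first, namely 12.2 in the HoxA flank, 12.1 at 34014 bp from Hoxa13 and 13 in an intron of Mtx2, a mitochondrial outer membrane gene, at 84668 bp from Hoxd1. In the replicates they had 5.72 and 6.67, 5.45 and 6.52, and 6.79 and 4.11, with replicate 1 first. The sixth had 8.04, in an intron of Ttll6, with 5.61 in replicate 2 and no region in replicate 1.

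The Hox promoters of the RefSeq table, each 300 bases around a gene start, matched 22 of the 39 genes with 24 promoters on GRCm38. The MAF core was in 2 (8.33%), those of Hoxa10 and Hoxd12, against 19.5% of 32851 promoters. The antioxidant response element core was in 7 (29.2%), against 27.8%, and the AP-1 element in 1 (4.17%), against 5.20%. The composite element and the palindrome were in none, against 0.289% and 1.21%. The CTCF core was in 17 (70.8%), against 66%.

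In 6 lists of genes related to Hox genes by function or family, 23 of 68 (33.8%) had an optimal summit at most 10 kb from a TSS, close to the 26.9% of all genes. The shares of 3 lists were above that of all genes and those of the other 3 below it. Among Polycomb genes, whose products silence Hox clusters, 8 of 15 (53.3%) had one. Jarid2, a subunit of the H3K27 methyltransferase complex PRC2, had 5 regions with a highest signal of 156, in an intron 1273 bp from its TSS. Cbx7, the main Polycomb chromobox of stem cells, had a signal of 92.9 at 130 bp from its TSS. Pcgf2 had 83.9 and Ring1, an H2A ubiquitin ligase, had 38.9. The highest region of each of these 4 genes was in both replicates' thresholded lists, as was that of Cbx6 (36.9). The highest regions of Ezh2 (18.9), Rnf2 (17.4) and Phc1 (16.9) were in neither.

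Of the trithorax and MLL genes, whose products keep Hox genes active, 5 of 10 (50%) had an optimal summit, against 26.9% of all genes. Kmt2d, an H3K4 methyltransferase, had a highest signal of 87.3. The H3K27 demethylase Kdm6a had 41.7, Rbbp5 had 34.0 and Kdm6b, another H3K27 demethylase, had 26.6. Each of these 4 regions was in the thresholded list of 1 replicate and not of the other. Kmt2a, the MLL1 methyltransferase that maintains Hox expression, had its nearest optimal summit just outside the limit, at 10121 bp.

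Of the TALE cofactors, homeodomain proteins that bind DNA with Hox proteins, 4 of 9 (44.4%) had an optimal summit, against 26.9% of all genes. By highest signal Pbx4 had 90.9, Pbx3 had 75.2, Meis1 had 32.9 and Meis2 had 16.0, the last in neither replicate's thresholded list. Of the retinoic acid receptors and enzymes 2 of 10 (20%) had one, against 26.9% of all genes. Rara, a retinoic acid receptor, had a highest signal of 336 and 6 regions, and its partner Rxra had 249 at 254 bp from its TSS.

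Of the Cdx, ParaHox and Evx genes 2 of 8 (25%) had an optimal summit, against 26.9% of all genes. They were Cdx2, which activates Hox genes of the trunk, with 87.3 at 6211 bp, and Gsx2 with 20.9. Evx1 and Evx2, which sit beside HoxA and HoxD, had none, with the nearest at 102204 and 209210 bp. Among other homeobox genes in clusters 2 of 16 (12.5%) had one, against 26.9% of all genes, namely Dlx5 with 25 and Irx6 with 18.4.

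**Figure D5:**
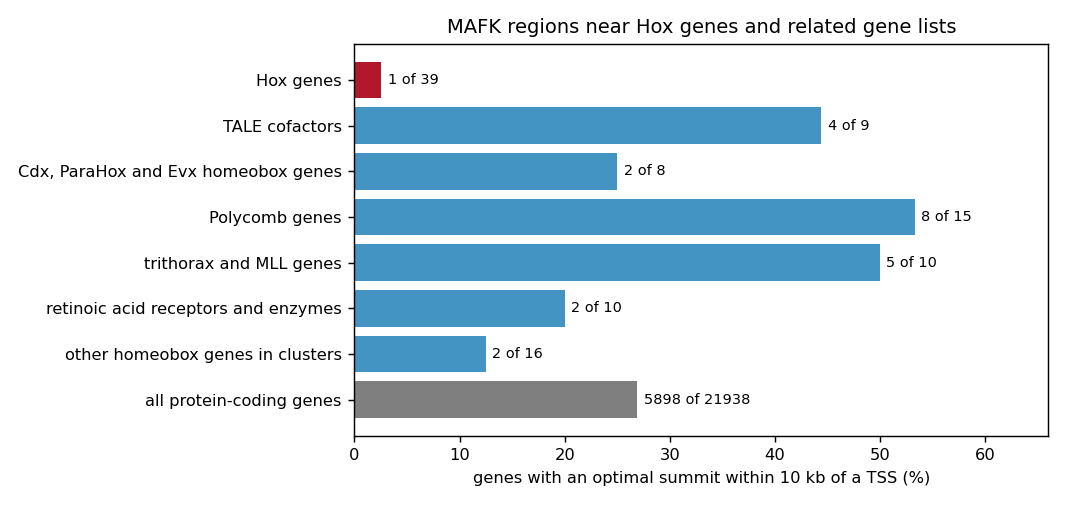
Share of genes (%) with an optimal summit within 10 kb of a TSS, for the Hox genes (red), 6 lists of related genes (blue) and all protein-coding genes (grey), with the counts beside the bars. The Hox bar is at 2.56%, the Polycomb bar at 53.3% and the bar of all genes at 26.9%.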

How the data were processed

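MAFK ChIP-seq of ES-E14 cells was read from lists of regions on mm10. For the aligner and the peak caller, the sources used here give no name. Per the notes deposited with the samples, a first run gave relaxed lists of single and pooled replicates, and from these an optimal and a conservative list by the irreproducible discovery rate (IDR). A second run started from different alignments and gave further thresholded lists, again of single and pooled replicates. The signal value and the scaled IDR score are scores the authors deposited without stating the scale of the signal, and were used to describe and rank regions within a list. The significance column the authors deposited is a −log10 q-value, and the summit was the deposited offset in bp from the region start. The authors' ranked IDR lists were not used.

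Genes came from GENCODE vM21 and sequence from GRCm38, the assembly of mm10. Coordinates are 1-based. Summits were assigned to genes within 10 kb of any TSS, elements were searched within 50 bp of summits, densities used the assembled chromosomes outside assembly gaps, and overlap meant at least 1 bp. The scripts ran in Python 3.11.15 with pandas 2.3.3, numpy 2.4.6 and pysam 0.24.0, and were tested on simulated data. Fewer sequenced molecules and weaker binding cannot be told apart, and the depth of each replicate is unknown.

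Named are all Hox genes with an optimal summit within 10 kb, all optimal regions in the clusters and flanks, the 4 relaxed regions of highest signal inside each cluster and up to 4 members of each related list by highest signal. Other genes were named after their values were seen, and 1 Hox gene is counted but its values are not reported here. The members, the gene lists and the comparisons were chosen with earlier results of these data known. No test was run, since the study has 1 group. Alternatives were other lists, each replicate alone, other distances, flanks, thresholds and windows.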

Additional observations from a re-analysis of the deposited data

How the results depend on the processing

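The count of 1 Hox gene with a summit within 10 kb was 2 in the conservative lists of both runs and 1 in the other lists tried, and it was 0 at 2 kb and 12 at 50 kb. The 5 regions of clusters and flanks became 9 in the thresholded list of the second run, 20 with 200 kb flanks, 3 in the strongest 50% of the list, and 2 to 2 without either replicate. The other alternatives gave 4 to 6. The 1 region inside the clusters was absent (0) from the strongest 50% and from each replicate's thresholded list (0 to 0), and present in every list made from both replicates. The 96 relaxed regions inside the clusters were 85 to 105 in a single replicate, 50 in the strongest 50% and 10 at a deposited −log10 q of 1.3 or more. Their density ratio of 1.72 was 1.73 to 1.88 in a single replicate and 1.79 in the strongest 50%, and it was 1.15 at a deposited −log10 q of 1.3 or more, an alternative chosen after seeing the data. The 22 seen in both replicates were 12 when summits had to lie within 100 bp. MAF-type elements were at 3 to 4 of the 5 called regions in windows of 25 and 100 bp to either side. Counts this small rest on single regions, nearness to a gene is no sign of regulation, and regions that read depth left below the lists' limits cannot be seen. No paired analysis was possible because the study has 1 group and its results come from no test.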
